A study of Mus musculus with 16 samples.

Results

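Bowman gland genes were followed through sorted cells of the mouse olfactory mucosa. They are 8 genes, Sox9, Sox10, Aqp5, Muc5b, Dmbt1, Bpifa1, Reg3g and Scgb1c1, taken as the probe sets whose platform gene symbol is one of these names. Each gene had 1 probe set, so they made up 8 of 19572 probe sets with a gene symbol, which stand for 19505 genes. S100a5-tauGFP mice carry a green fluorescent reporter under the control of S100a5, which encodes a calcium binder whose level in olfactory sensory neurons follows their activity. In this design mice breathe an odorant while awake, and cells with the reporter (the GFP+ gate) and without it (the GFP- gate) are then separated by flow cytometry. All 24 mice, of both sexes and 7 to 12 weeks old, carried the reporter, were housed singly in chambers under an airflow of 3.1 L/min for 40 h, and received pulses of 10 s every 20 min once 26 h had passed. The 4 groups were citrus accord (a fragrance blend, given at 100%) GFP+, citrus accord GFP-, vehicle (filtered air) GFP+ and vehicle GFP-, with n = 4 Clariom S arrays each and the cells of 3 mice pooled for each array.

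Bowman's glands are the secretory glands of the olfactory mucosa. Their acini lie below the epithelium, and their ducts cross it to deliver the mucus in which odorants dissolve and the cilia of the sensory neurons lie. The mucus holds mucins, antimicrobial proteins and small carrier proteins. Sox9 and Sox10 are transcription factors of gland lineages, Aqp5 is a water channel of secreting cells, and the other members are secreted proteins. The sort selected on the reporter of sensory neurons and not on any gland marker, and how many gland cells came through dissociation was not measured.

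Most of these genes were dim. The probe sets named as negative controls had a median between 4.84 and 5.37 on the log2 scale over the 16 arrays. What they match was not checked, and they may not all be free of transcript signal. Their 95th percentile lay between 8.75 and 9.71. Scgb1c1 exceeded that level of its own array on 8 of 16 arrays, Sox9 on 6 and Bpifa1 on 1. Sox10, Aqp5, Muc5b, Dmbt1 and Reg3g exceeded it on 0 of 16. Against a milder level, the 95th percentile of the background probes binned by GC content (6.16 to 6.65), Scgb1c1 was above on 16 arrays, Bpifa1 on 10, Sox9 on 9, Aqp5 on 4, Dmbt1 on 1, and Sox10, Muc5b and Reg3g on 0. So of the 8 genes that give the set its name, Scgb1c1 and Sox9 had signal above the stricter level on several arrays and the other 6 did not. A log2 difference below is a difference of measured signals, and a fold is given only as a lower bound against the negative-control level. Every such bound is on deposited signal, whose scale the processing may have widened, and is no bound on a ratio of mRNA.

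The GFP+ gate was enriched for S100a5 mRNA, in the direction of the labels. The reporter itself was not read, and S100a5 stayed above the negative-control level on all 4 arrays of each GFP- group. S100a5 averaged 17.43 ± 0.10 in citrus GFP+ cells and 15.55 ± 0.10 in citrus GFP- cells, and 16.86 ± 0.16 in vehicle GFP+ cells and 14.94 ± 0.13 in vehicle GFP- cells (SD, n = 4 each). Omp, a marker of mature olfactory sensory neurons, lay between 19.25 and 19.42 in GFP+ cells and between 18.83 and 19.35 in GFP- cells. Its signal was thus strong in both gates. These values lie near the highest on the arrays (19.75 to 19.9), so they do not measure how many neurons each gate held. Arrays of 1 group correlated at 0.9852 to 0.9917. The vehicle GFP- array of replicate 1 stood apart for the gland genes: 7 of the 8 had their lowest vehicle GFP- value there, with a median of -1.54 against the mean of the other vehicle pools, where 26.2% of all probe sets were lowest. On the GFP+ array of the same replicate 1 of 8 was lowest, with a median of 0.02. The sustentacular cell markers moved with them: 10 of 11 were lowest on that GFP- array (median -4.62) and 9 of 11 on that GFP+ array (median -2.57). For the gland genes the main results that rest on this pool are given with and without it. Single genes of the other lists are mostly given with it alone. In bulk samples such as these, fewer cells of a type and less RNA per cell cannot be told apart.

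Sox9 was lower in GFP+ cells than in GFP- cells under both stimuli, and its groups did not overlap. This high-mobility-group transcription factor is known for its part in gland and duct cells, and in the olfactory mucosa it is used as a marker of Bowman's glands. The gene lies at chr11:112782210-112787757 (GRCm38.p6). Sox9 read 5.47, 6.25, 5.78 and 5.52 in citrus GFP+ cells, against 9.55, 8.96, 9.94 and 9.73 in citrus GFP- cells. It read 5.40, 5.41, 5.37 and 5.10 in vehicle GFP+ cells, against 8.19, 10.99, 10.22 and 9.62 in vehicle GFP- cells. Every GFP+ array lay well under every GFP- array, and the lowest GFP- value was that of vehicle replicate 1. The GFP+ minus GFP- difference was -3.79 ± 0.40 in citrus (SE, 95% interval -4.64 to -2.94, limma adjusted p = 1.54e-06). In vehicle it was -4.44 ± 0.40 (-5.29 to -3.59, limma adjusted p = 3.05e-07), and -4.98 without vehicle replicate 1. Since all GFP+ values lay under the negative-control level, the fold has only a bound. The Sox9 signal was at least 1.5-fold lower in citrus GFP+ cells and at least 1.33-fold lower in vehicle GFP+ cells. The vehicle bound was 1.72-fold without vehicle replicate 1, and without vehicle replicate 2 no bound above 1 could be given.

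Sox10, a related factor of gland acini that is also known from the ensheathing glia of the olfactory nerve, differed in the same direction by less and at background level. Its gene lies at chr15:79154913-79164490. Sox10 read 4.11, 4.51, 4.13 and 4.16 in citrus GFP+ cells, against 4.66, 4.87, 5.45 and 5.01 in citrus GFP- cells, and these groups did not overlap. For vehicle, Sox10 read 3.97, 3.18, 3.96 and 4.27 in GFP+ cells, against 4.19, 5.66, 5.32 and 4.69 in vehicle GFP- cells, where GFP+ replicate 4 exceeded GFP- replicate 1. The difference was -0.77 ± 0.29 in citrus (limma adjusted p = 0.0717) and -1.12 ± 0.29 in vehicle (limma adjusted p = 0.00962). The vehicle call was lost without vehicle replicate 2 (-0.67, limma adjusted p = 0.12) and without replicate 3 (-1.04, limma adjusted p = 0.051), in a range of 0.0029 to 0.12 over 12 alternatives. Without vehicle replicate 1 the vehicle difference of Sox10 was -1.42. Of 9 measured ensheathing glia markers, 0 passed in citrus and 1 in vehicle, namely Erbb3, a neuregulin receptor, at -1.22 ± 0.29 (limma adjusted p = 0.0065). With the pool of mice added to the model as a block, 1 was lower under each stimulus. The mean of the glia list stayed between 4.75 and 5.02 in citrus GFP+ cells and 4.84 and 5.02 in citrus GFP- cells. In vehicle it stayed between 4.67 and 5.1 in GFP+ cells and 4.8 and 5.1 in GFP- cells. These means were at background, but the marker Apod was not on every array. Apod exceeded the negative-control level on 3 citrus GFP+ arrays and on 1 array of each other group. The part of glia in the Sox10 signal was not tested further.

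Other SOX factors were read beside these 2. Of 10 measured genes of the family, 3 were lower in GFP+ cells in citrus, 3 in vehicle and 0 higher in either, although 2 were higher in citrus with arrays centred on their medians and 1 with quantile normalization. The median of the 10 was -0.18 in citrus and -0.19 in vehicle, against 0.13 and 0.11 over all probe sets. Sox11, a factor of newly formed neurons, averaged 7.68 ± 0.65 in citrus GFP+ cells and 10.21 ± 0.45 in citrus GFP- cells (difference -2.53 ± 0.30), and 7.32 ± 0.46 in vehicle GFP+ cells and 10.13 ± 0.27 in vehicle GFP- cells (difference -2.81 ± 0.30), at least 2.38-fold and 1.72-fold lower. Sox2, a factor of progenitor and sustentacular cells, differed by -2.64 in citrus and -1.82 in vehicle, under the negative-control level on all arrays. Sox6 passed in citrus alone (-1.13) and Sox8 in vehicle alone (-0.80), both also at background.

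**Figure D1:**
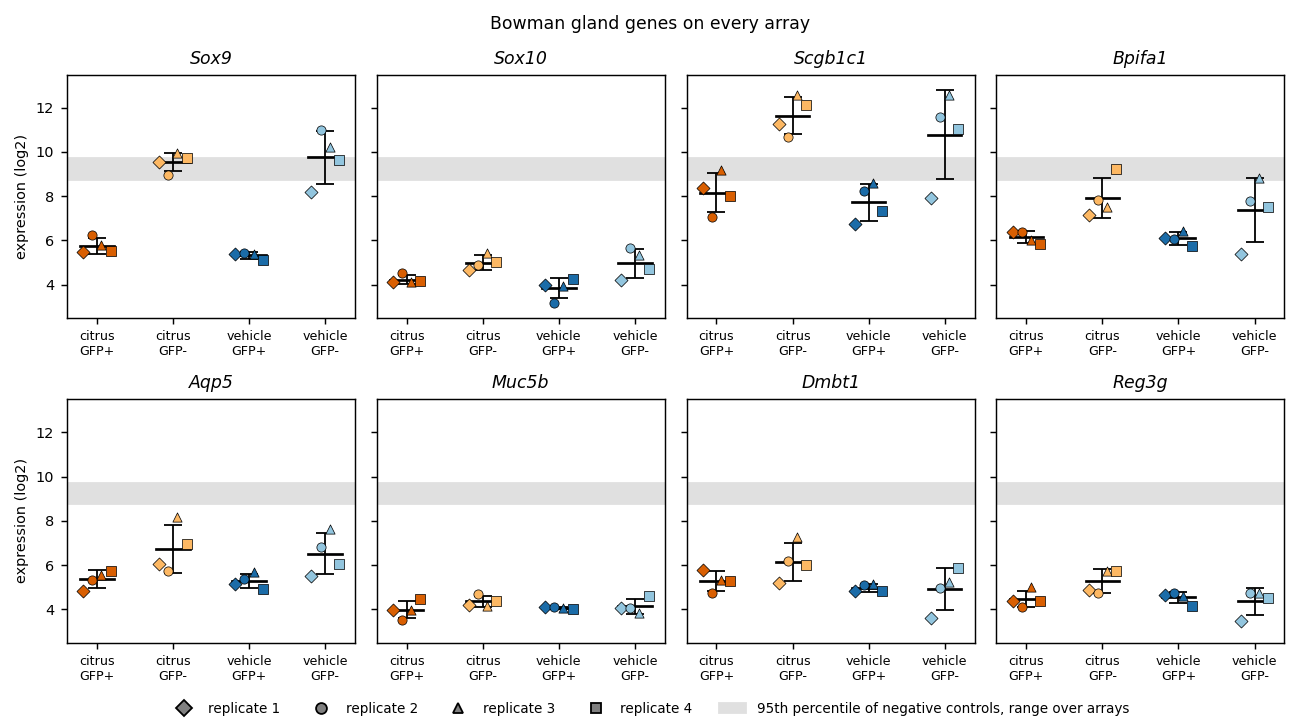
The log2 expression of the 8 genes (vertical axis) on each array of the 4 groups, where a marker shape is a replicate, the horizontal bar is the mean, the error bar is the SD of n = 4 arrays, and the grey band spans the negative-control 95th percentile over arrays (8.75 to 9.71). Sox9 and Scgb1c1 reach the band or pass it on GFP- arrays, vehicle GFP- replicate 1 (diamond) is low in 7 of 8 genes, and 5 of the genes stay below the band.

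Scgb1c1, a secretoglobin that Bowman's glands secrete into the olfactory mucus, was lower in GFP+ cells under both stimuli. Its gene lies at chr7:140845565-140846769. The 250 bases before its start are chr7:140845315-140845564 on the plus strand (RefSeq, GRCm38.p6). They are shown because this gene, like Bpifa1 and Aqp5, was called lower in citrus GFP+ cells and had a window at hand. Sox9 was called lower too, but its window was not at hand. Shared regulation of these genes was not tested. They are 53.6% G or C with 3 CpG.
Scgb1c1: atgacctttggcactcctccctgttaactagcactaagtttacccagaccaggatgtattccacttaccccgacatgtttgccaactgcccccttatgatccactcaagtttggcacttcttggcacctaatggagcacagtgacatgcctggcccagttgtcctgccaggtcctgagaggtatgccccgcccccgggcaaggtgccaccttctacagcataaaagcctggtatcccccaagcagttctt
Scgb1c1 read 8.36, 7.05, 9.19 and 8.02 in citrus GFP+ cells, against 11.26, 10.66, 12.56 and 12.10 in citrus GFP- cells. In vehicle GFP+ cells it read 6.72, 8.24, 8.59 and 7.31, against 7.92, 11.59, 12.59 and 11.02 in vehicle GFP- cells. The citrus groups did not overlap. The vehicle groups overlapped because GFP- replicate 1 lay among the GFP+ values. The difference was -3.49 ± 0.75 in citrus (95% interval -5.07 to -1.91, limma adjusted p = 0.00244) and -3.06 ± 0.75 in vehicle (-4.65 to -1.48, limma adjusted p = 0.00754). Without vehicle replicate 1 it was -3.69, and without vehicle replicate 4 the vehicle call was lost (-2.85, limma adjusted p = 0.058), in a range of 0.00016 to 0.058 over 13 alternatives. The Scgb1c1 signal was at least 2.7-fold lower in vehicle GFP+ cells, where all 4 arrays lay under the negative-control level. The bound was 4.71-fold without vehicle replicate 1, and 2.23-fold, 1.93-fold and 2.61-fold without replicate 2, 3 and 4.

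Within each pool the direction held. GFP+ minus GFP- for Scgb1c1 was -2.89, -3.61, -3.38 and -4.08 in citrus pools 1 to 4 and -1.20, -3.34, -4.0 and -3.71 in vehicle pools 1 to 4. For Sox9 it was -4.08, -2.72, -4.16 and -4.21 in citrus pools and -2.79, -5.58, -4.85 and -4.52 in vehicle pools. Both genes were thus lower in GFP+ cells in 8 of 8 pools, with the smallest vehicle difference in pool 1 for each.

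Bpifa1, a secreted protein of the BPI fold family that is abundant in upper airway fluid and known for surfactant and antibacterial action, was lower in GFP+ cells in citrus. Its gene lies at chr2:154142880-154149217. The 250 bases before its start, chr2:154142630-154142879 on the plus strand (RefSeq, GRCm38.p6), are 39.2% G or C with 2 CpG, and hold a TATA box, TATAAA, in capitals, whose first base is at -29.
Bpifa1: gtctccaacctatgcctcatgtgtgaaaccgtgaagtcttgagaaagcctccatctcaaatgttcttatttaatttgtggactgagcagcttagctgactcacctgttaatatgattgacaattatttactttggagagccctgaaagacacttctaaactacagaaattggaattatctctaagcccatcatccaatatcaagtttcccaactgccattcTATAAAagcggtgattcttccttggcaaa
Bpifa1 read 6.39, 6.37, 6.03 and 5.86 in citrus GFP+ cells, against 7.17, 7.82, 7.51 and 9.23 in citrus GFP- cells. In vehicle GFP+ cells it read 6.11, 6.08, 6.43 and 5.73, against 5.39, 7.79, 8.81 and 7.53 in vehicle GFP- cells. The citrus groups did not overlap, whereas vehicle GFP- replicate 1 was below all 4 vehicle GFP+ arrays. The difference was -1.77 ± 0.53 in citrus (limma adjusted p = 0.0253) and -1.30 ± 0.53 in vehicle (limma adjusted p = 0.0987). Without vehicle replicate 1 the vehicle difference was -1.97 and passed (limma adjusted p = 0.0046, in a range up to 0.3 over 12 alternatives). The citrus call was lost without citrus replicate 2, 3 or 4, with adjusted p of 0.0683, 0.0667 and 0.191 by limma, in a range of 0.0075 to 0.19 over 12 alternatives. Only citrus GFP- replicate 4 exceeded the negative-control level, so no fold is given.

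Of the 12 other BPI fold genes, 0 passed in vehicle and 1 was lower in citrus GFP+ cells, with a median of 0.08 in citrus and 0.14 in vehicle. With the pool as a block 1 was higher under each stimulus, and with arrays centred on their medians 5 were higher in citrus and 4 in vehicle. The lower gene was Bpifb3, with 8.54 ± 0.74 in citrus GFP+ cells and 10.18 ± 0.62 in citrus GFP- cells (difference -1.64 ± 0.50, limma adjusted p = 0.0295). Its call was lost without any one of the 4 citrus pools and with a trended and robust prior. Of 7 measured genes listed as nasal lipocalins and odorant-binding proteins, 1 was lower under each stimulus. This was Vmo1, a protein of secretions that belongs to neither family. It differed by -2.94 ± 0.73 in citrus (limma adjusted p = 0.0075) and -2.48 ± 0.73 in vehicle (limma adjusted p = 0.023). The lipocalins and odorant-binding proteins proper gave no call as deposited. With arrays centred on their medians 2 genes of the list were higher in citrus and 1 in vehicle. The vehicle call of Vmo1 was lost without vehicle replicate 2, 3 or 4 and with a trended and robust prior. Vmo1 was also lowest among vehicle GFP- arrays on replicate 1, at 5.29, against 8.75, 9.89 and 8.75 on the others.

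Muc5b, the gel-forming mucin of the glands (chr7:141839059-141873089), gave no signal above background. It read 3.98, 3.53, 3.95 and 4.47 in citrus GFP+ cells, against 4.21, 4.68, 4.15 and 4.4 in citrus GFP- cells. Its values were 4.09, 4.13, 4.08 and 4.01 in vehicle GFP+ cells, against 4.08, 4.07, 3.82 and 4.61 in vehicle GFP- cells. The groups overlapped under both stimuli, and the differences of -0.38 ± 0.20 in citrus and -0.07 ± 0.20 in vehicle did not pass (limma adjusted p = 0.214 and 0.854). Of 13 other measured genes of mucins and mucus secretion, 2 were lower and 1 was higher in citrus GFP+ cells, and 1 was lower in vehicle GFP+ cells. With the pool as a block 5 passed in citrus and 2 in vehicle, and with arrays centred on their medians 5 were higher and 1 lower in citrus. Muc1, a membrane-bound mucin, averaged 5.59 ± 0.40 in citrus GFP+ cells and 8.07 ± 1.08 in citrus GFP- cells, and 5.79 ± 0.24 in vehicle GFP+ cells and 7.84 ± 1.14 in vehicle GFP- cells, under the negative-control level throughout. Its differences were -2.49 ± 0.50 and -2.05 ± 0.50 (limma adjusted p = 0.0013 and 0.0070), and the vehicle call was lost without vehicle replicate 2 and without replicate 4. Xbp1, a transcription factor of secretory cells, was above background on all arrays and was lower in citrus GFP+ cells by a difference of -0.74 (limma adjusted p = 0.027). The higher gene was Tff2, a trefoil peptide of mucus, with a difference of 0.47 at background level (limma adjusted p = 0.031), a call lost without citrus replicate 2, 3 or 4. Without citrus replicate 2 or 4 the count of lower genes in citrus was 1.

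Dmbt1, a secreted scavenger-receptor protein that binds bacteria (chr7:131032057-131121628), had 5.80, 4.72, 5.34 and 5.29 in citrus GFP+ cells, against 5.18, 6.18, 7.27 and 6.0 in citrus GFP- cells. It had 4.83, 5.09, 5.16 and 4.82 in vehicle GFP+ cells, against 3.61, 4.97, 5.25 and 5.86 in vehicle GFP- cells. The gates overlapped under both stimuli, and the differences of -0.87 ± 0.42 in citrus and 0.05 ± 0.42 in vehicle did not pass (limma adjusted p = 0.171 and 0.949). Reg3g, a C-type lectin that kills Gram-positive bacteria (chr6:78466269-78468874), had 4.4, 4.13, 5.0 and 4.39 in citrus GFP+ cells, against 4.86, 4.75, 5.75 and 5.74 in citrus GFP- cells. It had 4.65, 4.73, 4.62 and 4.16 in vehicle GFP+ cells, against 3.47, 4.73, 4.72 and 4.52 in vehicle GFP- cells. These gates overlapped too, with differences of -0.79 ± 0.30 in citrus (limma adjusted p = 0.0744, and 0.0378 with the pool as a block, in a range of 0.019 to 0.31 over alternatives) and 0.18 ± 0.30 in vehicle (limma adjusted p = 0.722). All values of both genes lay under the negative-control level.

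Of 13 other antimicrobial proteins of airways and glands, 3 were lower in GFP+ cells under each stimulus and 0 higher (2 higher under each with arrays centred on their medians), and the median was -0.23 in citrus and 0.05 in vehicle. The 3 were Ltf, Lyz2 and Lyz1. Ltf, lactoferrin, averaged 4.89 ± 0.36 in citrus GFP+ cells and 13.47 ± 1.09 in citrus GFP- cells, and 5.35 ± 0.29 in vehicle GFP+ cells and 13.17 ± 1.04 in vehicle GFP- cells, at least 22.7-fold and 14.1-fold lower. Lyz2, a lysozyme, averaged 7.84 ± 1.29 in citrus GFP+ cells and 15.87 ± 0.51 in citrus GFP- cells, and 8.27 ± 1.52 in vehicle GFP+ cells and 15.56 ± 0.37 in vehicle GFP- cells. Ltf and Lyz2 are also known as products of neutrophils and macrophages. On vehicle GFP- replicate 1 Ltf and Lyz2 read 14.33 and 15.86, which were not their lowest vehicle GFP- values. Lyz1 read 6.35 there, against 6.38, 6.56 and 7.56 on the other vehicle GFP- arrays, all under the negative-control level. The cell source of these signals was not tested.

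Aqp5 was lower in citrus GFP+ cells, on dim signals. It encodes the water channel of the apical membrane of gland cells and lies at chr15:99591028-99594829. The 250 bases before its start, chr15:99590778-99591027 on the plus strand (RefSeq, GRCm38.p6), are 78.4% G or C with 38 CpG.
Aqp5: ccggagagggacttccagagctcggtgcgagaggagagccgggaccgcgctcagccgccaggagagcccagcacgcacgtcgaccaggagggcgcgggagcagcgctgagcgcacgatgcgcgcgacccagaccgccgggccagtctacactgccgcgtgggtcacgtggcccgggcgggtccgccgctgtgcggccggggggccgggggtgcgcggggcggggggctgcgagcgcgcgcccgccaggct
Aqp5 read 4.81, 5.34, 5.56 and 5.74 in citrus GFP+ cells, against 6.05, 5.74, 8.17 and 6.96 in citrus GFP- cells. In vehicle GFP+ cells it read 5.13, 5.38, 5.69 and 4.93, against 5.53, 6.84, 7.65 and 6.06 in vehicle GFP- cells. Under each stimulus the groups overlapped at their edges, and GFP- replicate 3 was the highest. The difference was -1.37 ± 0.46 in citrus (limma adjusted p = 0.0485), a call lost under 8 of 12 alternatives, which gave adjusted p of 0.01 to 0.2 by limma. In vehicle it was -1.23 ± 0.46 (limma adjusted p = 0.0731, and 0.0185 with the pool as a block, in a range of 0.019 to 0.22 over alternatives). Without vehicle replicate 1 the vehicle difference of Aqp5 was -1.51. In each of the 8 pools Aqp5 was lower in the GFP+ cells.

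The 4 upstream windows at hand, those of Scgb1c1, Bpifa1, Aqp5 and Reg3g, were searched on both strands for the SOX cores ACAAAG and ACAATG, the forkhead core TGTTTAC and the STAT palindrome TTCNNNGAA, and on the strand of the gene for TATAAA. No SOX, forkhead or STAT match was found in them, and TATAAA stood in those of Bpifa1 and Reg3g, at -29 and -27. Among 32851 RefSeq windows of the same length, ACAAAG was present in 16.5%, ACAATG in 10.7%, TGTTTAC in 3.17%, TTCNNNGAA in 7.02% and TATAAA in 7.59%.

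Genes of gland fluid transport and simple epithelial keratins were read beside Aqp5. Of 15 measured, 9 were lower and 1 was higher in citrus GFP+ cells, and 7 were lower and 1 was higher in vehicle GFP+ cells, with a median difference of -1.29 in citrus and -1.05 in vehicle. With the pool as a block 11 and 9 were lower. Krt18, a keratin of simple epithelia, averaged 6.48 ± 0.51 in citrus GFP+ cells and 10.86 ± 0.94 in citrus GFP- cells, and 6.80 ± 0.80 in vehicle GFP+ cells and 10.42 ± 1.36 in vehicle GFP- cells. It was at least 3.73-fold and 2.11-fold lower. Its partner keratin Krt8 differed by -2.97 and -2.78, the chloride channel Cftr by -3.87 and -3.29, and the water channel Aqp1 by -3.26 and -2.26, in citrus and in vehicle. These signals were dim. Krt8 exceeded the negative-control level on 2 citrus GFP- arrays, Cftr on 1 GFP- array under each stimulus, and Aqp1 on 1 citrus GFP- array. All other arrays lay under it for these genes, so no fold is given. Slc4a4, a sodium bicarbonate cotransporter, was the gene that was higher, by a difference of 0.85 ± 0.17 in citrus and 0.60 ± 0.17 in vehicle, and its vehicle call was lost without vehicle replicate 1, 3 or 4. Keratins and Cftr are expressed by other epithelial cells of the mucosa as well.

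Counted over the 8 genes, 4 were lower in GFP+ cells in citrus (Sox9, Scgb1c1, Bpifa1 and Aqp5) and 3 in vehicle (Sox9, Sox10 and Scgb1c1), and 0 were higher. Over all 19572 probe sets, 10.8% were lower in citrus and 9.97% in vehicle, and 18.2% and 19% changed in either direction. The median difference of the 8 was -1.12 in citrus and -1.18 in vehicle, against 0.13 and 0.11 over all probe sets. With the pool as a block 5 and 4 of the 8 passed. The groups did not overlap for 4 of 8 genes in citrus (Sox9, Sox10, Bpifa1 and Scgb1c1) and for 1 in vehicle (Sox9), all lower in GFP+ cells, where 11% and 9.96% of all probe sets were lower with no overlap. In exact two-sided permutation tests of 4 against 4 arrays these 5 comparisons had p = 0.0286, the smallest that 70 assignments allow. Adjusted over the 32 exact tests made (8 genes in 4 comparisons), the value was 0.131, so none passed that correction.

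**Figure D2:**
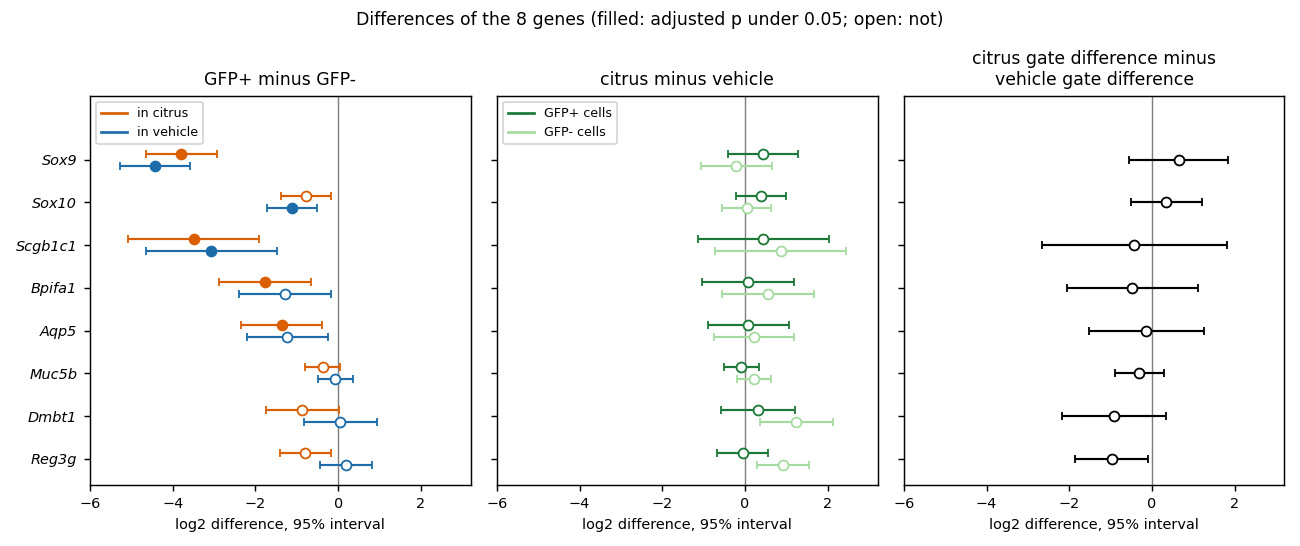
Log2 differences with 95% intervals from the limma fit (horizontal axis) for the 8 genes, with GFP+ minus GFP- under each stimulus on the left, citrus minus vehicle within each gate in the middle, and the difference of the gate differences on the right, each from 4 arrays a group. Filled points passed an adjusted p of 0.05; they are found on the left only, 4 for citrus and 3 for vehicle.

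Other cell types moved with the gates. All 14 markers of neutrophils and monocytes were lower in GFP+ cells under both stimuli, with a median difference of -9.25 in citrus and -8.85 in vehicle. Their mean lay between 5.03 and 6.21 in citrus GFP+ cells and 13 and 14.78 in citrus GFP- cells, and between 5.45 and 6.65 in vehicle GFP+ cells and 13.83 and 14.85 in vehicle GFP- cells. All 10 markers of microvillous cells were lower too, with a median of -3.18 in citrus and -2.94 in vehicle. Only 4 of the 10 exceeded the negative-control level on at least 4 arrays. With arrays centred on their medians 9 were lower in citrus. Their mean was 5.41 to 5.58 in citrus GFP+ cells and 8.0 to 8.91 in citrus GFP- cells, and 5.28 to 5.61 in vehicle GFP+ cells and 7.28 to 8.87 in vehicle GFP- cells. All 4 measured markers of B cells and plasma cells were lower as well. Of 8 markers of immature olfactory sensory neurons, 4 were lower under each stimulus, with a median of -1.20 in citrus and -0.99 in vehicle, and with the pool as a block 1 was also higher in vehicle. Their mean was 11.13 to 11.3 in citrus GFP+ cells and 12.52 to 12.86 in citrus GFP- cells, and 10.97 to 11.28 in vehicle GFP+ cells and 12.41 to 12.87 in vehicle GFP- cells. The part of these cell types in the gland gene differences was not tested.

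Sustentacular cells, the supporting cells of the olfactory epithelium, had some markers above background in both gates. Of 11 measured markers, 2 (Cyp2g1 and Cyp2a5) exceeded the negative-control level on all 16 arrays, whereas 4 exceeded it on 0 of the 8 GFP+ arrays. Of the 11, 3 were lower in citrus GFP+ cells and 1 in vehicle GFP+ cells, with a median of -1.73 and -1.10. With the pool as a block 10 and 6 passed, without vehicle replicate 1 the vehicle count was 5, and without citrus replicate 2, 3 or 4 the citrus count was 1. Their mean lay between 8.64 and 10.4 in citrus GFP+ cells and 9.96 and 11.92 in citrus GFP- cells, and between 7.87 and 10.26 in vehicle GFP+ cells and 7.52 and 11.63 in vehicle GFP- cells. Cyp2g1, an olfactory cytochrome P450 of these cells, still read 12.76, 14.22, 15.69 and 14.81 in citrus GFP+ cells, against 14.57, 16.11, 16.61 and 16.82 in citrus GFP- cells. It read 12.13, 15.01, 15.4 and 14.44 in vehicle GFP+ cells, against 11.38, 16.72, 16.41 and 16.03 in vehicle GFP- cells. Horizontal basal cell markers gave 0 calls of 8 under either stimulus by limma, and ciliated cell markers 2 higher of 6 under each. Both counts moved with scaling: with arrays centred on their medians 2 horizontal basal markers were higher in citrus and 6 ciliated markers under each stimulus, and with mature neuron centring 1 ciliated marker was higher in citrus and 0 in vehicle. The vehicle ciliated count was 1 with the pool as a block and 0 without vehicle replicate 2 or 3, and the citrus one was 1 without citrus replicate 2 or 3. Of the ciliated markers, Sntn, Dnah5 and Dnah9 exceeded the negative-control level on 0 arrays, and Ccdc39 and Cfap126 on every array. Tekt1 exceeded it on 2 vehicle GFP- arrays and on all arrays of the other groups. Whether ciliated cells gave these signals was not tested.

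**Figure D3:**
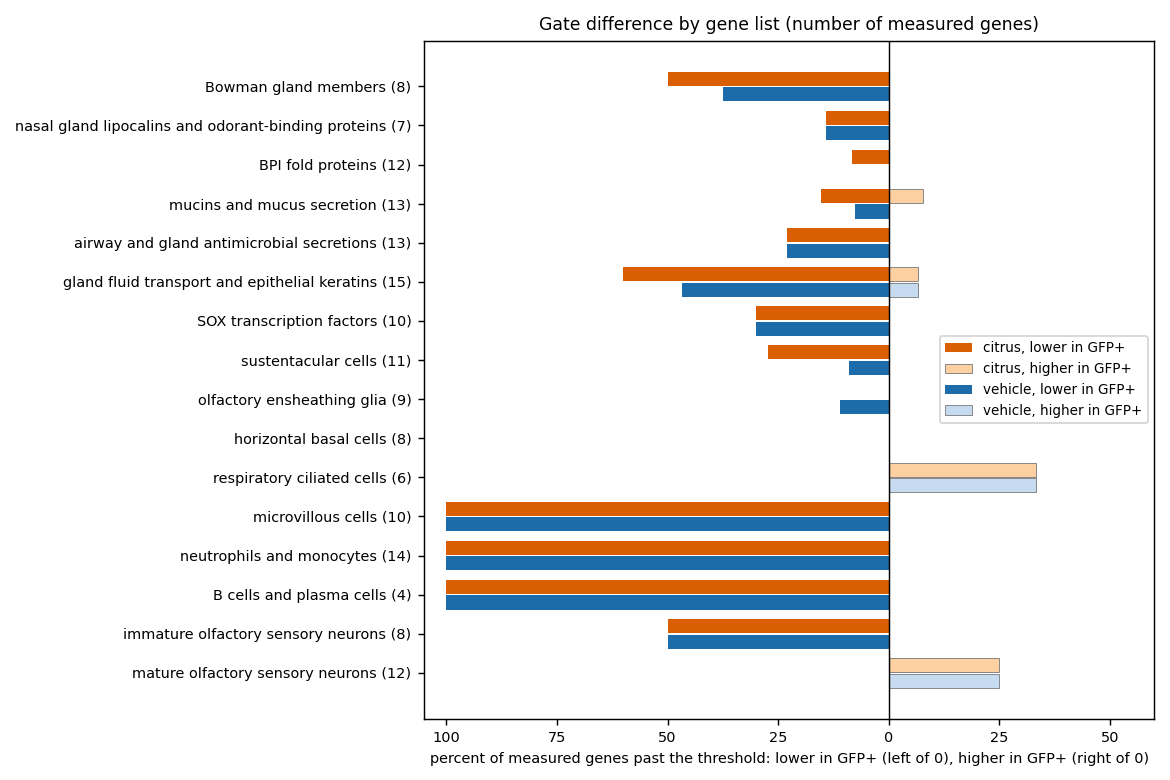
The percent of measured genes of each list that passed an adjusted p of 0.05, lower in GFP+ cells to the left of 0 and higher to the right, with citrus above vehicle and the number of measured genes in brackets. The gland genes (4 and 3 of 8 lower) lie between the fluid transport and keratin genes (9 and 7 of 15 lower) and the secreted protein families, while all microvillous, neutrophil and B cell markers were lower.

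On 1 of the 8 GFP- arrays several gland genes were low together. Scgb1c1 on vehicle GFP- replicate 1 was 7.92, against 11.59, 12.59 and 11.02 on the other vehicle GFP- arrays. The vehicle GFP- mean was 10.78 ± 2.01 with it and 11.73 ± 0.79 without it, against an SD of 0.85 in citrus GFP- cells. For Sox9 the vehicle GFP- mean was 9.76 ± 1.18 with that array and 10.28 ± 0.69 without it, and for Bpifa1 7.38 ± 1.44 and 8.05 ± 0.68. The sustentacular markers Cyp2g1 and Cyp1a2 were low on the same array, at 11.38 and 4.81. Neutrophil and monocyte markers were not, with 3 of 14 lowest there and a median of 0.39 above the other vehicle pools, and 0 of 12 mature neuron markers were lowest there. Microvillous markers were lowest there in 8 of 10 cases, with a median of -1.10. So were 3 of 4 B cell and plasma cell markers, with a median of -1.32. Of the fluid transport and keratin genes 11 of 15 were lowest there, with a median of -1.07.

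**Figure D4:**
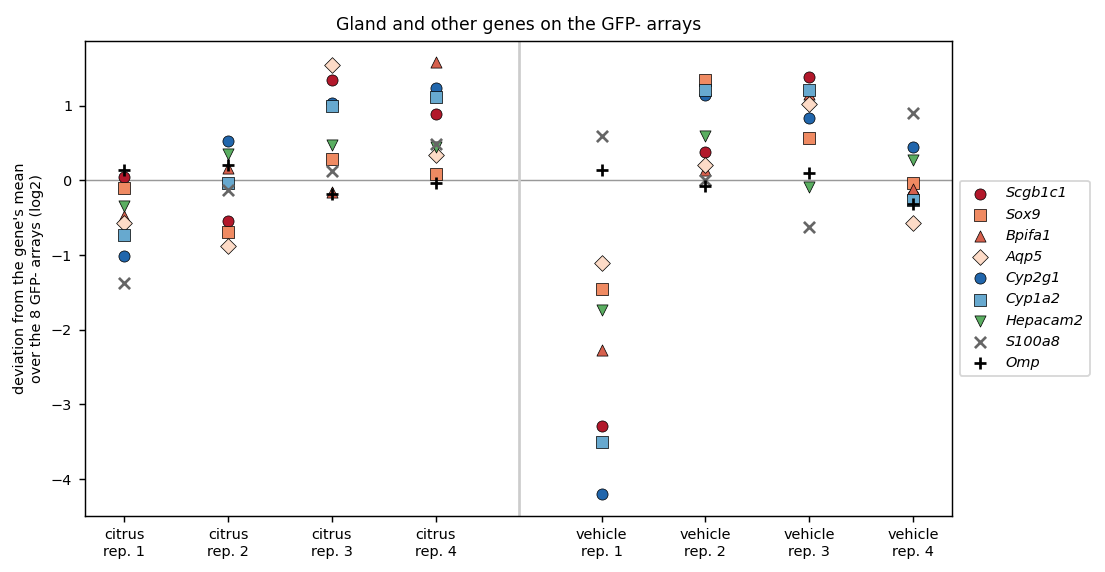
The deviation of 9 genes from their own mean over the 8 GFP- arrays (vertical axis, log2) on each GFP- array, citrus on the left and vehicle on the right. On vehicle replicate 1 Scgb1c1, Bpifa1, Sox9, Aqp5, the sustentacular genes Cyp2g1 and Cyp1a2 and the microvillous gene Hepacam2 are low, while the neutrophil gene S100a8 and the neuronal gene Omp are not.

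Likeness over the 16 arrays was taken for Scgb1c1 and Sox9, the members above the negative-control level on at least 4 arrays, among 6364 such probe sets. The genes most like Scgb1c1 were Rgs5, a regulator of G protein signalling (Pearson r = 0.980), Clu, a secreted chaperone (0.973), and Svopl, a transporter-like protein (0.970). With group means removed they were Rgs5 (0.952), Cyp1a2 (0.943) and Clu (0.926). Rgs5 read 9.35 on vehicle GFP- replicate 1, at least 12.47 on the other GFP- arrays and at most 9.67 on GFP+ arrays, so it shared the low value of that array. The genes most like Sox9 were Hepacam2, a marker of microvillous cells (0.972), and H2-Ab1 and H2-Aa, chains of MHC class II (0.971 and 0.970). With group means removed they were Tchp (0.882), Stt3a (0.849) and Sumo2 (0.807), whose whole ranges over the arrays were 12.48 to 12.98, 14.31 to 15.07 and 14.81 to 15.30. The first values follow the gates, which all these arrays share, and the others rest on residuals of the same 16 arrays, of which vehicle GFP- replicate 1 carries the largest for Scgb1c1. They are descriptions with no test.

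**Figure D5:**
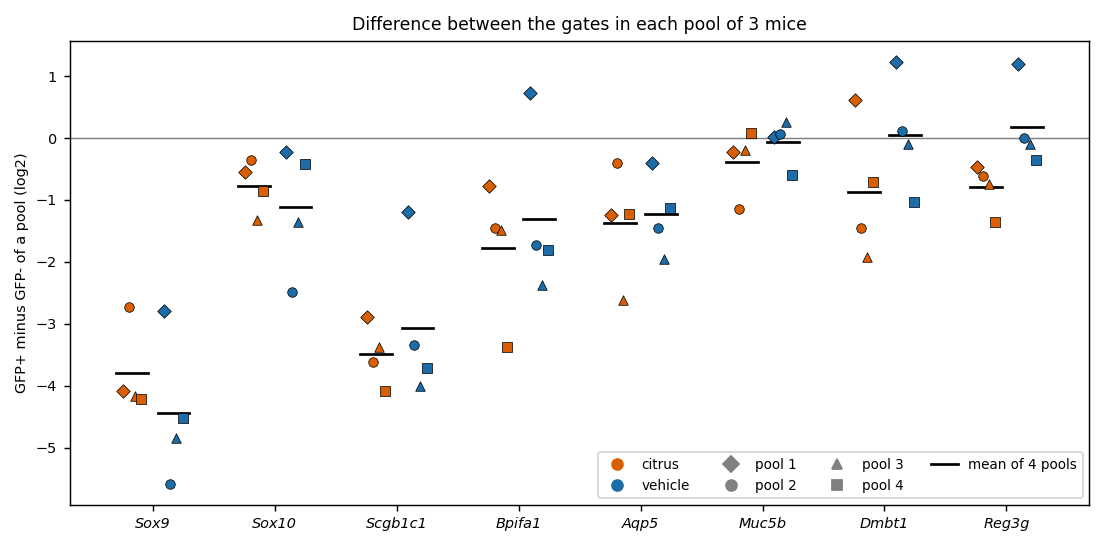
GFP+ minus GFP- within each pool of 3 mice (vertical axis, log2) for the 8 genes, citrus left of vehicle, with a marker shape for each pool and a bar for the mean of 4 pools. Sox9, Scgb1c1, Sox10 and Aqp5 are below 0 in all 8 pools, and vehicle pool 1 (diamond) lies at the upper end in vehicle for 7 of the 8 genes, above 0 for Bpifa1, Dmbt1 and Reg3g.

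No gland gene passed the threshold for citrus accord against vehicle in either gate, by limma. In GFP+ cells 0 of 8 passed by limma (adjusted p = 0.999 for each) and 0 of 8 had an unadjusted p under 0.05. Over all probe sets 0.0204% passed and 4.06% had an unadjusted p under 0.05. Scgb1c1 averaged 8.15 ± 0.88 in citrus GFP+ cells and 7.72 ± 0.86 in vehicle GFP+ cells, a difference of 0.44 ± 0.75 with an interval of -1.14 to 2.02. Sox9 averaged 5.75 ± 0.35 in citrus GFP+ cells and 5.32 ± 0.15 in vehicle GFP+ cells, a difference of 0.43 ± 0.40 with an interval of -0.42 to 1.29. The Sox9 groups did not overlap, all under the negative-control level, as 1.47% of all probe sets did in the higher direction.

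In GFP- cells 0 of 8 passed by limma, against 0.0153% of all probe sets, and 2 of 8 had an unadjusted p under 0.05, against 5.88% of all probe sets. Reg3g averaged 5.27 ± 0.55 in citrus GFP- cells and 4.36 ± 0.60 in vehicle GFP- cells, a difference of 0.92 ± 0.30 (unadjusted p = 0.00656, limma adjusted p = 0.808). Its groups did not overlap, as was so for 1.26% of all probe sets in the higher direction. Dmbt1 averaged 6.15 ± 0.86 in citrus GFP- cells and 4.92 ± 0.95 in vehicle GFP- cells, a difference of 1.23 ± 0.42 (unadjusted p = 0.00903, limma adjusted p = 0.824). Without vehicle replicate 1 the differences were 0.62 for Reg3g and 0.80 for Dmbt1. Both genes lay under the negative-control level throughout. Scgb1c1 averaged 11.65 ± 0.85 in citrus GFP- cells and 10.78 ± 2.01 in vehicle GFP- cells, a difference of 0.87 ± 0.75 with an interval of -0.72 to 2.45, which was -0.09 without vehicle replicate 1. Bpifa1 averaged 7.93 ± 0.91 in citrus GFP- cells and 7.38 ± 1.44 in vehicle GFP- cells, a difference of 0.55 ± 0.53, and -0.11 without that pool. Sox9, Sox10, Aqp5 and Muc5b differed by -0.21, 0.03, 0.22 and 0.21, each with an interval that includes 0.

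The test of a change in the gate difference with citrus passed for none of the 8 genes by limma (adjusted p = 0.999 for each), nor for any of the 19572 probe sets, a share of 0%. An unadjusted p under 0.05 was found for 1 of 8 genes and 3.69% of all probe sets. That gene was Reg3g, at -0.98 ± 0.42 (unadjusted p = 0.0321), and -0.64 without vehicle replicate 1. For Sox9 the citrus gate difference minus the vehicle one was 0.64 ± 0.57 with an interval of -0.56 to 1.85, and for Scgb1c1 it was -0.43 ± 1.06 with an interval of -2.67 to 1.81. Aqp5, Bpifa1, Sox10, Muc5b and Dmbt1 gave -0.14, -0.47, 0.35, -0.31 and -0.92.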

How the data were processed

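Each array held RNA (50 to 100 ng) from the sorted cells of 3 mice, per the labels. The authors deposited log2 expression values for 28846 probe sets. Per the submitters' processing notes they came from Affymetrix Expression Console, of which neither version nor build is stated in what was used here. One label calls the values SST-RMA gene-level signal, a robust multi-array average with a transformation that may widen the scale, so log2 differences may exceed log2 ratios of mRNA. They were used as deposited. By the platform annotation 19572 probe sets had 1 gene symbol and were tested, 0 had several, 2634 had none here and 6640 were controls, among them 5222 negative-control probe sets. All 8 genes were matched to RefSeq by Entrez identifier. Arrays give no read depth, and their number limits the precision.

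The tests used limma 3.58.1 (R 4.3.3) on all 16 arrays with a mean for each group, empirical Bayes moderation, two-sided p-values and Benjamini-Hochberg adjustment over the 19572 probe sets (threshold 0.05), for 5 comparisons. Errors beside a difference are standard errors, and intervals are 95%. The test was also run on simulated data, for the gate comparison in vehicle only. Those data had independent arrays with no pool effect, so they cannot show how leaving out the pool affects the calls. The members, gene lists and rule for named genes were chosen with earlier results of these data known. By that rule all 8 genes are named with every value, S100a5 for the sort, and up to 4 called genes of each other list by size. Omp, Cyp2g1, Cyp2a5, Cyp1a2, Slc4a4 and S100a8 were named after their values were seen.

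GFP+ and GFP- arrays of one stimulus and number were treated as coming from the same mice, an inference from 24 mice in pools of 3 and 8 numbered pairs, since no label says so directly. With group means removed such arrays correlated at 0.075 to 0.275 over probe sets. The main fit leaves the pool out, and values with the pool as a block stand beside the gland genes and the lists described whose counts they change. The labels name no second batch. Alternatives were other scalings, filters, priors and weights, the groups fitted alone, and each pool left out. Single genes were also tested by exact permutation (scipy 1.17.1), and figures were drawn with matplotlib 3.10.9.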

Additional observations from a re-analysis of the deposited data

Results flagged for a closer look

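In each set of 4 values, the 8 genes in 4 groups and their 8 pool differences under 2 stimuli, an extreme value was marked where its gap to the nearest other value exceeded the 95% critical share of the range given by Dixon. Of 48 sets 4 were marked, and chance alone gives about 1 in 20, or 2.4. Sox9 in vehicle GFP+ replicate 4 was low at 5.10, where the others lay between 5.37 and 5.41. The Sox9 GFP+ minus GFP- difference of citrus pool 2 was the smallest at -2.72, where the other citrus pools lay between -4.21 and -4.08. Sox10 in citrus GFP+ replicate 2 was high at 4.51, where the others lay between 4.11 and 4.16. Reg3g in vehicle GFP- replicate 1 was low at 3.47, where the others lay between 4.52 and 4.73. The 3 single-array values lie under the negative-control level, and the pool difference of Sox9 keeps its direction.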

How the results depend on the processing

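Sox9 kept its direction and call in all 13 alternatives under each stimulus, and Scgb1c1 in all 13 in citrus. The 13 include the fit without dim probe sets, which both genes entered through their GFP- arrays. That fit is therefore no separate check of a lower GFP+ signal. With the pool as a block 5 of the 8 genes passed in citrus and 4 in vehicle, against 4 and 3, and over all probe sets 4119 and 4253 passed, against 3569 and 3723. In that replicate block fit 1 probe set passed for the effect of citrus on the gate difference, against 0, as it did with mature neuron centring (1) and a trended and robust prior (1), and 0 to 1 passed with a pool left out. For citrus against vehicle, same-numbered arrays share only a number (correlations 0.07 to 0.33 in GFP+ and -0.01 to 0.35 in GFP- cells), and with it as a block 3 and 3 probe sets passed, against 4 and 3.

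Scaling moved the counts over all probe sets. Array medians differed by -0.33 in citrus and -0.28 in vehicle (GFP+ minus GFP-). Centring them gave 10839 calls in citrus (9128 higher, 1711 lower) and 8635 in vehicle (7080 higher, 1555 lower), against 1457 higher and 2112 lower, and 1771 higher and 1952 lower, as deposited. Centring on mature neuron markers, whose means differed by 0.35 and 0.27, gave 536 higher and 3490 lower, and 596 higher and 2869 lower, and 7 of the 8 genes lower in citrus. Leaving dim probe sets out gave 1564 calls in citrus, 2012 in vehicle and 2 for citrus against vehicle in GFP+ cells (against 4). Under each stimulus 2 gland genes stayed in that test and were counted, which the filter itself favours, since they passed it through their GFP- arrays. With a pool left out the counts were 2477 to 3142 in citrus and 2369 to 3437 in vehicle, and 2 to 4 gland genes under each.

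Median centring turned Muc5b in vehicle to 0.21 and Sox10 for citrus against vehicle in GFP- cells to -0.019 (-0.015 with array weights), and mature neuron centring turned Dmbt1 to -0.21 and Reg3g to -0.083 in vehicle. With a pool left out, GFP+ minus GFP- in vehicle ran from -0.18 to 0.11 for Muc5b, -0.34 to 0.42 for Dmbt1 and -0.15 to 0.36 for Reg3g. Citrus minus vehicle in GFP+ cells ran from -0.047 to 0.27 for Aqp5, -0.26 to 0.057 for Muc5b, -0.040 to 0.19 for Bpifa1 and -0.23 to 0.055 for Reg3g. In GFP- cells it ran from -0.73 to 0.20 for Sox9, -0.22 to 0.27 for Sox10, -0.26 to 0.59 for Aqp5, -0.11 to 1.03 for Bpifa1 and -0.088 to 1.47 for Scgb1c1. The difference of the gate differences ran from -0.10 to 0.65 for Sox10, -0.46 to 0.28 for Aqp5, -0.84 to 0.20 for Bpifa1 and -0.74 to 0.19 for Scgb1c1. None of these was called as deposited. Fitting the compared groups alone was not run for the difference of the gate differences.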
